A study of Mus musculus with 24 samples.

Results

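The let-7 family was examined in the plasma of mice that had inhaled particles carrying environmentally persistent free radicals (EPFR). The family was taken by probe name, as the mouse miRNA probes mmu-let-7a, mmu-let-7b, mmu-let-7c, mmu-let-7d, mmu-let-7e, mmu-let-7f, mmu-let-7g and mmu-let-7i, which were 8 of the 566 mouse miRNA probes on the panel. The plasma was that of 24 male mice of the inbred strain C57BL/6J, each assayed on its own and 20 weeks old by the labels. There were 8 mice exposed to EPFR, which are combustion particles with a high load of radicals, 8 exposed to EPFR lo, which are particles with fewer radicals at the same airborne mass, and 8 that breathed filtered air. Every mouse was exposed for 4 h per day on 5 days, and for both particle groups the labels state 250 µg of particles per cubic meter, where the methods state another mass. About 10 ng of RNA from a 200 µL plasma sample was assayed by NanoString nCounter, in which each miRNA is ligated to a DNA tag, hybridized to a color-coded probe and counted without amplification.

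The let-7 miRNAs are among the most conserved small RNAs of animals, and vertebrate genomes carry several copies. They repress target mRNAs, among them Ras genes, Myc, Hmga2 and Lin28, through the seed at their 5′ end, and are known for promoting differentiation and limiting proliferation, while the Lin28 proteins block their maturation. They are made in nearly all adult tissues, including lung, blood cells and vessel wall, so plasma let-7 has no single known source. In bulk plasma, a change in the number of cells or vesicles that release a miRNA and a change in the amount each releases cannot be told apart.

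The mature sequences are shown because the members differ by so few bases that each reading rests on a probe telling close relatives apart. All 8 names were matched to RefSeq miRNA of GRCm38.p6, and the sequences run 5′ to 3′ with the seed, bases 2 to 8, in capitals.
mmu-let-7a: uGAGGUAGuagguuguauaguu
mmu-let-7b: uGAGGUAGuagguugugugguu
mmu-let-7c: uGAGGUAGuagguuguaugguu
mmu-let-7d: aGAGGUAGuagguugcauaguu
mmu-let-7e: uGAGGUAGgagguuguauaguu
mmu-let-7f: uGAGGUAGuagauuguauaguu
mmu-let-7g: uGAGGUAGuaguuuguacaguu
mmu-let-7i: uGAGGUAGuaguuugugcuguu
mmu-miR-98: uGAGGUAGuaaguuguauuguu
The last line is miR-98, which carries the same seed without the let-7 name. All 8 members share the seed GAGGUAG and are 22 bases long, and their 28 pairs differ at 1 to 6 positions. Counted from 1 at the 5′ end and with mmu-let-7a first, mmu-let-7c differs from it only by A19G, mmu-let-7e by U9G and mmu-let-7f by G12A. The most distant member is mmu-let-7i, with G12U, A17G, U18C and A19U, and mmu-let-7g shares G12U and U18C with it. mmu-let-7d is the one member with a different first base (U1A, with U16C). Whether a probe also counted a near-identical relative was not tested.

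The genes of the family are scattered over the genome, several of them close together, and the positions given here are those of the hairpins in GRCm38.p6. Mirlet7a-1 (chr13:48538179-48538272), Mirlet7f-1 (chr13:48537829-48537917) and Mirlet7d (chr13:48536012-48536114) lie side by side on the minus strand. Mirlet7c-2 (chr15:85706603-85706697) and Mirlet7b (chr15:85707319-85707403) lie 622 bases apart within the bounds of the long non-coding RNA gene Lncppara. Mirlet7c-1 (chr16:77599657-77599750) is next to Mir99a, Mirlet7e (chr17:17830352-17830444) is next to Mir125a within Spaca6, and Mirlet7a-2 (chr9:41536716-41536811) lies within Mir100hg. Mirlet7f-2 (chrX:151912346-151912428) is followed by Mir98 within Huwe1. The hairpin of mmu-let-7g (chr9:106178840-106178927) lies within the bounds of Wdr82, and that of mmu-let-7i (chr10:122985640-122985724) lies within no other annotated gene and has no let-7 gene beside it. A mature sequence with 2 genes, as for mmu-let-7a, mmu-let-7c and mmu-let-7f, cannot be assigned to either from these counts.

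The counts behind these values were low. Depth was 8418 to 30483 mouse miRNA counts per mouse, and 41 of 566 miRNA had a mean raw count above 34.1, the mean plus 2 SD of all negative-control counts. A scaled count is the raw count multiplied by the positive-control and housekeeping factor of that mouse (0.575 to 1.66), with no background subtracted. As the housekeeping counts were themselves scaled to the positive controls first, the positive-control part cancels out of that factor. The whole factor therefore rests on probes at background in all 24 mice. Of 96 housekeeping readings (4 probes per mouse), 0 exceeded the mean plus 2 SD of that mouse's negative controls. In 4 of the mice no housekeeping probe was more than 1 count above the geometric mean of the negative controls. These were EPFR lo replicates 1, 2 and 4 and filtered air replicate 2. They share the highest factor, although their positive-control geometric means ran from 1205 to 1331. Adjusted p-values are from edgeR's quasi-likelihood F test on raw counts over all 566 miRNA, with Benjamini-Hochberg adjustment, and a member was called at an adjusted p under 0.05.

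mmu-let-7a, one of the most abundant miRNAs in many tissues, gave no usable reading. Its raw count was 1 in all 24 mice, the smallest value in the table, while the lowest of all negative-control counts was 4. The same constant 1 was found for 3 other probes, miR-155, miR-34c and miR-543. mmu-let-7a therefore has no fold change or test here, and 7 members remain. Its closest relatives mmu-let-7c, mmu-let-7e and mmu-let-7f, each 1 base away in the sequences above, were all counted.

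Among the other members, mmu-let-7g, mmu-let-7f and mmu-let-7i made up most of the plasma let-7 counts. mmu-let-7g had a mean raw count of 76.9 ± 58.3 (SD, n = 24 mice), the 10th highest of the 566 miRNA. mmu-let-7f followed with 66.4 ± 20.1 and mmu-let-7i with 61.9 ± 37.8. These 3 means lie within the spread of each other, with mmu-let-7g above mmu-let-7f in 11 of 24 mice and mmu-let-7f above mmu-let-7i in 14 of 24. mmu-let-7c, at 34.5 ± 17.3, lay just above the background limit and below mmu-let-7i in 22 of 24 mice. mmu-let-7b (26.8 ± 15.9), mmu-let-7e (20.2 ± 7.91) and mmu-let-7d (20.0 ± 16.6) had means under the limit. mmu-let-7b and mmu-let-7e could not be ordered, with mmu-let-7b higher in 13 of 24 mice, and neither could mmu-let-7e and mmu-let-7d, with mmu-let-7e higher in 13 of 24. These are counts per probe, and probes may differ in efficiency, so the order is one of readings rather than of molecules.

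Detection ran from every mouse to a few mice, depending on the member. A mouse's own limit was the mean plus 2 SD of its 8 negative controls, which ran from 23.7 to 44.5 counts. mmu-let-7f passed it in all 24 mice. mmu-let-7i passed in 6 of 8 EPFR mice, 8 of 8 EPFR lo mice and 3 of 8 filtered air mice, and mmu-let-7g in 5, 8 and 4 of 8 mice of the same groups. mmu-let-7c passed in 3 of 8 EPFR mice, 6 of 8 EPFR lo mice and 1 of 8 filtered air mice. The remaining members passed in few mice, with mmu-let-7b above the limit in 6 of 24, mmu-let-7d in 5 of 24 and mmu-let-7e in 2 of 24. A mouse had 3.25 ± 1.91 members above its limit in EPFR, 4.63 ± 1.41 in EPFR lo and 2.25 ± 1.39 in filtered air (mean ± SD, n = 8 each). For members near the limit, background counts take part in every value, so a fold change need not give the change in the RNA itself.

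mmu-let-7i was the member that rose after EPFR. Its scaled count was 17.4 at the lowest, 108 at the median and 182 at the highest in EPFR mice, 52.8, 64.0 and 107 in EPFR lo mice, and 20.4, 29.9 and 87.3 in filtered air mice. The EPFR mice were spread widely, with replicate 1 below every filtered air mouse, replicates 2 and 5 among them and the other 5 above every one of them. In raw counts only replicates 6 and 8 (107 and 153) lay above the highest filtered air mouse (92). Replicate 7 was level with that mouse (92), and replicates 3 and 4 were under it (82 each). By scaled count the EPFR lo mice were close together and all above the filtered air median, and in filtered air only replicate 6 reached their level. Against filtered air, mmu-let-7i had a log2 fold change of 1.33 in EPFR (standard error 0.36, edgeR adjusted p = 0.0379), with 7 of 8 mice above the filtered air median. A two-sided exact permutation test of the log2 scaled counts of this member alone gave p = 0.0448. In EPFR lo mice its log2 fold change was 0.93 (standard error 0.36, edgeR adjusted p = 0.420), with 8 of 8 mice above that median and an exact permutation p of 0.00218. The adjusted test thus called mmu-let-7i in EPFR and not in EPFR lo, while the unadjusted permutation test gave the smaller p in EPFR lo, and the direct comparison of EPFR with EPFR lo did not call it. In the authors' background-subtracted values mmu-let-7i stood at a median of 92.0 in EPFR, 44.8 in EPFR lo and 15.2 in filtered air.

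The EPFR call of mmu-let-7i depended on single mice and on the scaling. It was lost when any one of 12 of the 24 mice was left out, namely EPFR replicates 4, 6, 7 and 8, EPFR lo replicates 2 and 8 and filtered air replicates 1, 2, 3, 4, 5 and 7, with log2 fold changes of 1.13 to 1.65 and edgeR adjusted p-values of 0.00171 to 0.185 over all 24 such fits. Within replicates 1 to 4 the log2 fold change was 1.10 (edgeR adjusted p = 0.994) and within replicates 5 to 8 it was 1.48 (edgeR adjusted p = 0.0470). The ligation positive controls, synthetic RNAs added to every reaction, reached 2.59 times the filtered air level in EPFR mice (exact permutation p = 0.00373, n = 8 each) and 1.88 times that level in EPFR lo mice (exact permutation p = 0.112). With their level as a covariate, mmu-let-7i in EPFR was at 0.99 (edgeR adjusted p = 0.999).

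mmu-let-7g had its highest values in EPFR lo mice and was not called in either particle group with exposure group as the only factor. Its scaled count was 15.9 at the lowest, 64.7 at the median and 165 at the highest in EPFR mice, 47.5, 113 and 179 in EPFR lo mice, and 14.4, 43.9 and 136 in filtered air mice. All 8 EPFR lo mice lay above the filtered air median and 3 above its highest mouse, whereas the EPFR mice covered about the same range as filtered air. The log2 fold change was 1.09 in EPFR lo (standard error 0.37, edgeR adjusted p = 0.256, exact permutation p = 0.00948, n = 8 each) and 0.40 in EPFR (standard error 0.37, edgeR adjusted p = 0.991). Without filtered air replicate 6, which had the highest mmu-let-7g of its group, mmu-let-7g was called in EPFR lo at 1.43 (edgeR adjusted p = 0.0176) and so was mmu-let-7d, at 1.29 (edgeR adjusted p = 0.0153).

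**Figure D1:**
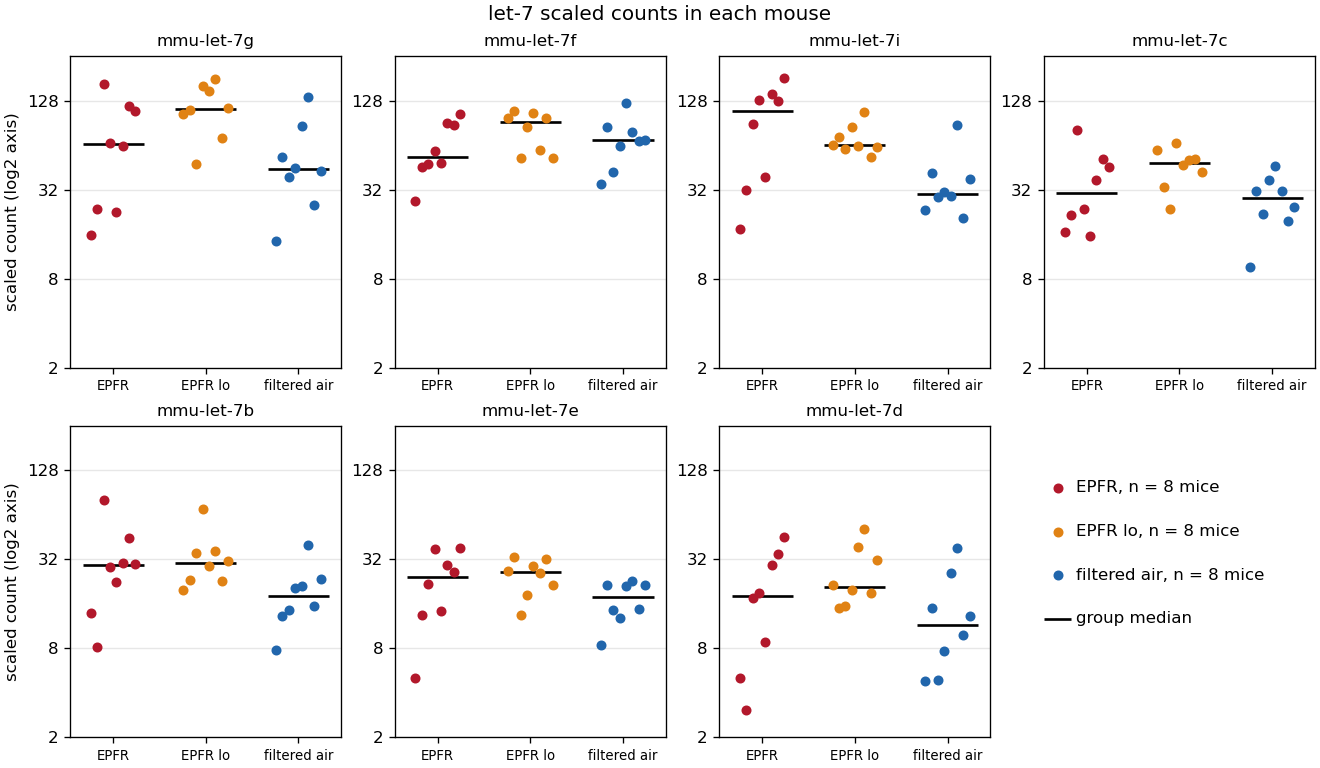
Scaled counts (log2 axis) of the 7 readable members in each mouse, with points for single mice in replicate order and a line at the median of 8 mice in EPFR, EPFR lo and filtered air. For mmu-let-7i, 5 of 8 EPFR mice lie above every filtered air mouse (in raw counts, replicates 6 and 8 only), and for mmu-let-7g all 8 EPFR lo mice lie above the filtered air median.

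mmu-let-7f, the best detected member, lay close to filtered air in both particle groups. Its scaled count was 26.8 at the lowest, 53.2 at the median and 104 at the highest in EPFR mice, 52.3, 91.0 and 109 in EPFR lo mice, and 34.9, 69.2 and 123 in filtered air mice. The 3 groups overlapped over nearly their whole ranges, and no particle-exposed mouse exceeded the highest filtered air mouse. Its log2 fold change was -0.16 in EPFR (standard error 0.36, edgeR adjusted p = 0.991) and 0.22 in EPFR lo (standard error 0.36, edgeR adjusted p = 1.00). The 95% intervals, -0.86 to 0.54 in EPFR and -0.47 to 0.92 in EPFR lo, leave room for changes in either direction. Their standard errors draw on the spread of all miRNA and ran only from 0.31 to 0.37 over the members in EPFR. The intervals are therefore not a measure of the spread of mmu-let-7f alone.

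The members near background gave smaller values. mmu-let-7b, which lies beside mmu-let-7c on chromosome 15, had a median scaled count of 29.1 in EPFR (range 8.22 to 80.4), 30.0 in EPFR lo (range 19.9 to 69.5) and 18.0 in filtered air (range 7.82 to 39.9). mmu-let-7c had a median of 30.3 in EPFR (range 15.6 to 81.4), 48.8 in EPFR lo (range 23.7 to 66.2) and 27.9 in filtered air (range 9.62 to 46.5). In both, the particle groups overlapped filtered air, and in EPFR lo 5 of 8 mice exceeded the highest filtered air mouse for mmu-let-7c and 1 of 8 for mmu-let-7b. For mmu-let-7d the medians were 18.1 in EPFR, 20.7 in EPFR lo and 11.6 in filtered air. For mmu-let-7e they were 24.1 in EPFR, 26.1 in EPFR lo and 17.8 in filtered air. For these 4 members the log2 fold changes were 0.41 to 0.71 in EPFR and 0.55 to 0.90 in EPFR lo, and none was called.

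Over the family, 1 of the 7 readable members was called in EPFR against filtered air, where 0.707% of all 566 miRNA were called. At an unadjusted p under 0.05, 2 of the 7 were higher in EPFR, mmu-let-7i and mmu-let-7b, where 3.89% of all miRNA were higher at that level. For mmu-let-7b the exact permutation test in EPFR gave p = 0.196. Its log2 fold change of 0.71 in EPFR was 0.35 without EPFR replicate 3. In EPFR lo against filtered air 0 of the 7 were called by edgeR, where 0.707% of all miRNA were called. At an unadjusted p under 0.05, 5 of the 7 (mmu-let-7b, mmu-let-7c, mmu-let-7d, mmu-let-7g and mmu-let-7i) were higher in EPFR lo, where 4.42% of all miRNA were. Most of the 566 miRNA lie at or under background, and among the 37 miRNA above it that are not let-7 members, 15 were higher in EPFR and 13 in EPFR lo at that level. Of the 4 let-7 members above it, 1 was higher in EPFR and 3 in EPFR lo. At an adjusted p under 0.05, 3 of the 37 others were called in EPFR and 2 in EPFR lo, against 1 and 0 of these 4. DESeq2 called no member in EPFR lo and mmu-let-7i in EPFR. The median log2 fold change of the 7 members was 0.41 in EPFR, with 6 of 7 positive, and 0.77 in EPFR lo, with 7 of 7 positive. Over all 566 miRNA the medians were -0.09 in EPFR and 0.11 in EPFR lo. Over the 37 miRNA above background that are not let-7 members they were 0.61 in EPFR, with 29 of 37 positive, and 0.58 in EPFR lo, with 36 of 37 positive, while the 4 members above background had medians of 0.40 and 0.85 in the same groups. Both comparisons share the same 8 filtered air mice.

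**Figure D2:**
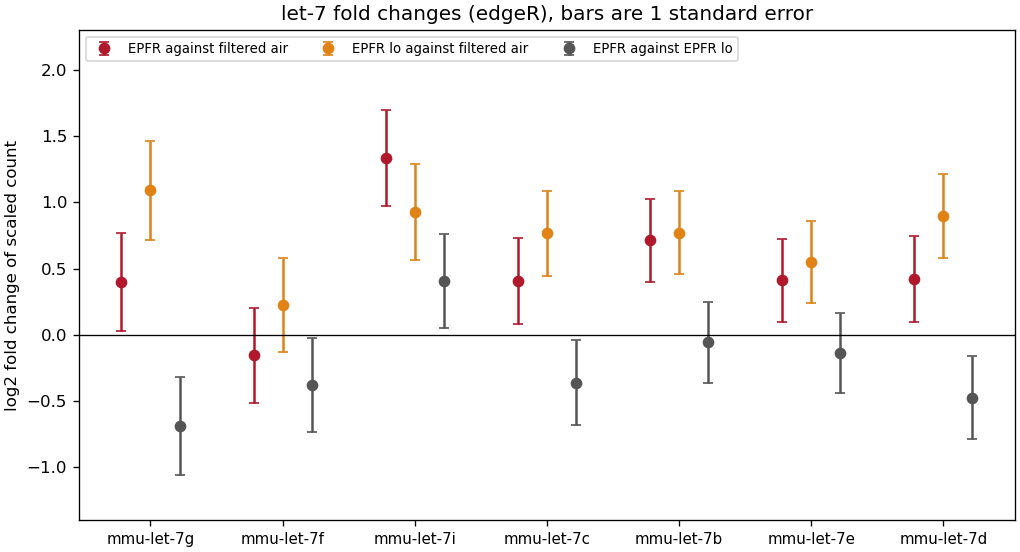
Log2 fold changes of the scaled counts of the 7 readable members from edgeR, with bars of 1 standard error, for each particle group over filtered air and for EPFR over EPFR lo (n = 8 mice per group). mmu-let-7i has the highest EPFR value (1.33), mmu-let-7g the highest EPFR lo value (1.09), and mmu-let-7f lies near 0 in both.

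EPFR against EPFR lo asks whether the radical load mattered at equal particle mass. By edgeR 0 of the 7 members were called, where 0.177% of all 566 miRNA were called. At an unadjusted p under 0.05, 0 of the 7 were higher in EPFR, where 0.53% of all miRNA were. mmu-let-7g had the most negative value, -0.69 (95% interval -1.42 to 0.03, edgeR adjusted p = 0.955, exact permutation p = 0.0682, n = 8 each). mmu-let-7i was the only positive one, at 0.41 (95% interval -0.29 to 1.10, edgeR adjusted p = 0.955). The other 5 members lay between -0.48 and -0.06. A difference between the particle groups was thus not detectable at this depth, and the intervals do not show that it is absent.

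With both particle groups pooled against filtered air, 0 of the 7 members were called by edgeR, where 0.707% of all miRNA were called, and 5 of the 7 were higher at an unadjusted p under 0.05, where 5.12% of all miRNA were. Among the 37 miRNA above background that are not let-7 members, 4 were called and 16 were higher at that level. Of the 4 members above background, 0 were called and 3 were higher. The member closest to a call was mmu-let-7i, at a log2 fold change of 1.13 (SE 0.33, edgeR adjusted p = 0.0568) and 15 of 16 mice above the filtered air median. A permutation test of its log2 scaled counts gave p = 0.00544. mmu-let-7b and mmu-let-7g were each at 0.74, with edgeR adjusted p-values of 0.288 and 0.642.

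The make-up of the family count needs no scaling factor, since each member is set against the others in the same mouse, and it is given as a description without a test. Background counts remain in these shares, most of all in the low members. In filtered air mmu-let-7f was the highest member in 7 of 8 mice, in EPFR lo mmu-let-7g was highest in 6 of 8, and in EPFR mmu-let-7i was highest in 4 of 8 and mmu-let-7f in 3 of 8. The median share of mmu-let-7f in the raw let-7 counts was 20.0% in EPFR (range 9.48% to 30.6%), 22.0% in EPFR lo (range 11.7% to 28.0%) and 31.0% in filtered air (range 18.1% to 39.3%). The share of mmu-let-7i was 24.3% in EPFR (range 17.1% to 35.5%), 17.1% in EPFR lo (range 13.7% to 24.1%) and 16.0% in filtered air (range 8.22% to 22.5%). The share of mmu-let-7g was 17.1% in EPFR (range 13.1% to 32.8%), 29.8% in EPFR lo (range 19.1% to 35.1%) and 20.4% in filtered air (range 13.9% to 31.2%). Each of the 3 abundant members thus had its largest median share in a different group, with overlapping ranges. When the negative-control mean of each mouse was subtracted first, the median share of mmu-let-7f in filtered air was 51.8%. The whole family held 2.01% of all mouse miRNA counts at the EPFR median, 2.27% in EPFR lo and 1.91% in filtered air.

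**Figure D3:**
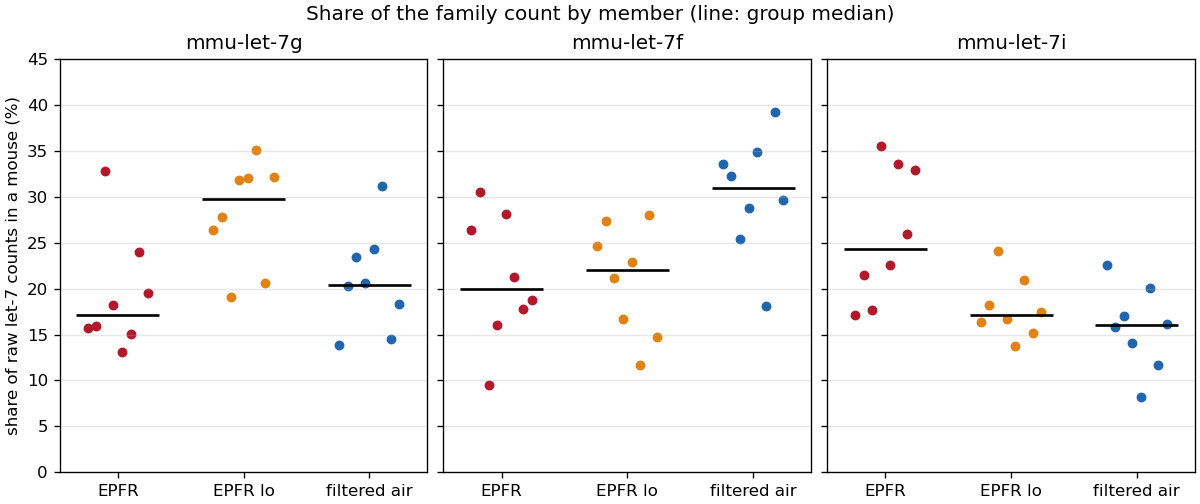
Share (%) of mmu-let-7g, mmu-let-7f and mmu-let-7i in the summed raw let-7 counts of each mouse, with points for single mice and a line at the median of 8 mice in EPFR, EPFR lo and filtered air. The median share of mmu-let-7i is highest in EPFR (24.3%), that of mmu-let-7g in EPFR lo (29.8%) and that of mmu-let-7f in filtered air (31.0%).

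The ratio of raw mmu-let-7i over mmu-let-7g counts within a mouse, which was chosen after these shares had been seen, set most EPFR mice apart from most EPFR lo mice and is given without a test. It had a median of 1.51 in EPFR mice (range 0.539 to 2.23), 0.608 in EPFR lo mice (range 0.429 to 1.26) and 0.755 in filtered air mice (range 0.338 to 1.63). mmu-let-7i exceeded mmu-let-7g in 7 of 8 EPFR mice, against 1 of 8 EPFR lo mice and 1 of 8 filtered air mice. In EPFR replicates 1 and 2 and filtered air replicates 2, 4 and 7 neither count passed the mouse's own background limit. In these mice the ratio compares readings at background. EPFR had the higher median in both replicate sets described next, with medians of 1.22 in EPFR and 0.638 in EPFR lo in replicates 1 to 4 and of 1.70 in EPFR and 0.570 in EPFR lo in replicates 5 to 8. mmu-let-7i and mmu-let-7g are the pair that share G12U and U18C in the sequences above and lie on different chromosomes.

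Counts also differed by replicate number. All 7 members had higher mean raw counts in replicates 5 to 8 than in replicates 1 to 4, and each of these sets held 4 mice of every group. Depth differed in the same direction, so the difference is not particular to let-7. Mouse miRNA counts were 8418 to 22152 per mouse in replicates 1 to 4 and 11953 to 30483 in replicates 5 to 8. The part of depth in the values of the members was not tested. The methods state that samples were run in several batches without saying which, so the sets are named here only by their numbers. mmu-let-7f averaged 82.9 ± 13.4 counts in replicates 5 to 8 (range 63 to 106), against 49.9 ± 8.63 in replicates 1 to 4 (range 37 to 66, SD, n = 12 each), a ratio of 1.66 with only a narrow overlap. mmu-let-7d moved most, with 30.3 ± 18.1 counts in the 5 to 8 set, against 9.67 ± 3.96 in the 1 to 4 set, a ratio of 3.14. In mmu-let-7f the 2 sets thus nearly separated. It was also the steadiest member over the 24 mice, with a coefficient of variation of raw counts of 0.303, against 0.392 for mmu-let-7e and 0.501 to 0.829 for the other 5 members.

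**Figure D4:**
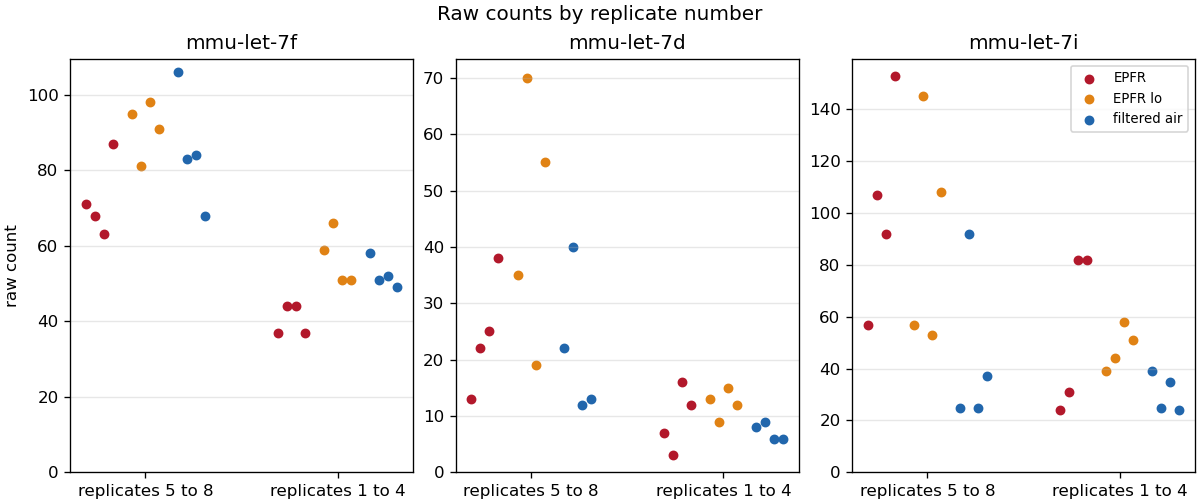
Raw counts of mmu-let-7f, mmu-let-7d and mmu-let-7i in single mice, with replicates 5 to 8 on the left and replicates 1 to 4 on the right of each panel and 4 mice per group in each (EPFR, EPFR lo and filtered air, left to right). mmu-let-7f averages 82.9 in replicates 5 to 8 and 49.9 in replicates 1 to 4.

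Within these sets the members kept their signs in both particle groups, except mmu-let-7f in EPFR lo. mmu-let-7g in EPFR lo against filtered air was at 1.50 in replicates 1 to 4 and 0.83 in replicates 5 to 8, and mmu-let-7i was at 1.19 in replicates 1 to 4 and 0.71 in replicates 5 to 8. The median of all 566 miRNA in that comparison was itself 0.53 in replicates 1 to 4 and -0.27 in replicates 5 to 8. mmu-let-7b was at 1.42 in replicates 1 to 4 and 0.26 in replicates 5 to 8, so the larger value was that of replicates 1 to 4. mmu-let-7f was at 0.63 and -0.12.

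How far the members moved together from mouse to mouse was described by correlations of log2 raw counts after the mean of each group and replicate set was removed. The points are 24 mice, and both counts of a pair come from the same library, so its depth enters every pair. mmu-let-7f had a median correlation of 0.04 with the other members (range -0.29 to 0.29). The other 6 had medians of 0.34 to 0.70, with mmu-let-7g at 0.70 and mmu-let-7i at 0.63. mmu-let-7f thus had the lowest median of the 7 members.

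The miRNAs most like the family were sought among the 37 other miRNA above background, by Spearman correlation of scaled counts with the summed let-7 count over 24 mice after group means were removed. The closest were the probe shared by miR-106a and miR-17 (0.910), miR-142-3p (0.899), miR-150 (0.877), miR-486 (0.862) and miR-19a (0.861). When each was taken as a share of all miRNA counts of its mouse, the same 5 gave 0.356, 0.454, 0.505, 0.083 and 0.080. Scaled counts of one mouse share its scaling factor and its yield, and the part of these in the likeness was not tested.

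Other miRNAs with the let-7 seed had no readable level. miR-98, encoded beside Mirlet7f-2, had a mean raw count of 13.6 and log2 fold changes of -0.69 in EPFR (edgeR adjusted p = 0.882) and -0.47 in EPFR lo (edgeR adjusted p = 1.00). miR-1961, annotated with the same bases 2 to 8, had a mean of 16.0 and values of -0.25 in EPFR and 0.14 in EPFR lo. Both means lie below 17.3, the mean of all negative-control counts, so these values say nothing of either miRNA. Of 6 miRNA encoded next to a let-7 gene (miR-98, miR-99a, miR-99b, miR-100, miR-125a-5p and miR-125b-5p), 0 were called by edgeR in either particle group and 1 had a mean count above background. That one was miR-125b-5p, a vascular and blood cell miRNA with a gene in the Mirlet7a-2 region, at 1.20 in EPFR (standard error 0.36, edgeR adjusted p = 0.0868) and 0.92 in EPFR lo (edgeR adjusted p = 0.420). Its median scaled count was 47.6 in EPFR mice (highest 301), 47.1 in EPFR lo mice (highest 200) and 36.2 in filtered air mice (highest 50.2).

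Blood cells carry let-7 miRNAs, so the levels of blood cell and tissue markers are given beside those of the family. Of 5 red blood cell miRNA (miR-451, miR-144, miR-486, miR-16 and miR-92a), 5 had positive values in both particle groups and 0 were called by edgeR, with medians of 0.75 in EPFR and 0.83 in EPFR lo. These counts are near those of the 37 miRNA above, of which 29 were positive in EPFR and 36 in EPFR lo, and miR-92a, with a mean raw count of 10.1, lay under the background limit. The summed scaled count of the 5 had a median of 6712 in EPFR mice, 5817 in EPFR lo mice and 2302 in filtered air mice. The sum ran from 1541 to 11737 in EPFR mice, 3060 to 9882 in EPFR lo mice and 890 to 7801 in filtered air mice. Most of it was miR-451, with a mean raw count of 3921, and the methods state that hemolyzed plasma was left out. Of 5 platelet and leukocyte miRNA (miR-223, miR-142-3p, miR-142-5p, miR-150 and miR-126-3p), miR-142-3p was called higher in both particle groups. The other 4 were not called. Sums of the 5 were 137 to 738 in EPFR, 293 to 629 in EPFR lo and 105 to 445 in filtered air. Of 2 liver miRNA (miR-122 and miR-192), miR-122 was called higher in EPFR lo and neither was called in EPFR. Their sums were 24.5 to 86.9 in EPFR, 20.6 to 176 in EPFR lo and 7.82 to 59.3 in filtered air. Mean raw counts of 33.4 for miR-122 and 13.7 for miR-192 lay under the background limit. In EPFR lo 4 of all miRNA were called in the main fit. The number was 0 without the 4 mice with no housekeeping probe over 1 count above the negative controls. It was also 0 among miRNA above background alone and with limma on the deposited values. Other settings with all 24 mice called 1 to 13. Of 3 striated muscle miRNA (miR-1, miR-133a and miR-206), miR-1 was called in EPFR and none in EPFR lo. Their sums were 21.7 to 549 in EPFR, 51.8 to 132 in EPFR lo and 19.8 to 75.6 in filtered air. The mean raw counts of miR-133a (18.8) and miR-206 (13.3) lay under the background limit. The median scaled count of miR-1 was 29.5 in EPFR mice (highest 420), below the 35.6 of EPFR lo mice (highest 76.2). In filtered air mice it was 21.1 (highest 31.7). No marker was at 0 in any list, and the part of these cells and tissues in the let-7 values was not tested.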

How the data were processed

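Raw counts of each probe in each mouse, unscaled nCounter readings, were deposited by the authors. They also deposited normalized values, a signal made in nSolver by taking off the negative controls' geometric mean and scaling to the positive controls and to Actb, B2m, Gapdh and Rpl19. Of the 13584 normalized values, 100% lay within 2% of the background-subtracted raw count times a single factor per mouse. That factor was read from the same values, so the match does not test how it was made. Tables of the authors' own comparisons hold fold changes and p-values and were not used. The main test was edgeR 4.0.16 (R 4.3.3, group as the only factor, all 24 mice, no filter on low counts), tested on simulated data. Exact permutation tests on log2(scaled count + 1) used SciPy 1.17.1 and are two-sided. Alternatives used limma 3.58.1, DESeq2 1.42.0, other scalings, filters, covariates and left-out mice. Members, sharers of the seed, gene neighbors, cell markers and the 5 miRNA most like the family were named by list or rule, and members and lists were chosen with earlier results of these data known. Fits within replicates 1 to 4 and 5 to 8 were added after the data had been seen. Intervals are the estimate with its standard error at 95%. Each mouse is a separate animal, and counting error and depth limit every value near background.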

Additional observations from a re-analysis of the deposited data

Results flagged for a closer look

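Of the 21 combinations of a readable member and a group, 2 had a mouse far from the other 7. The rule is meant to flag about 1 in 20 such groups by chance, a rate that was not tested for these counts. It was applied to scaled counts without a log, and the 21 combinations share the same mice. For mmu-let-7b, EPFR lo replicate 4 had a scaled count of 69.5 (raw count 42), against 36.1 in the next mouse of its group, and it is 1 of the 4 mice in which no housekeeping probe was more than 1 count above the geometric mean of the negative controls. For mmu-let-7i, filtered air replicate 6 had a scaled count of 87.3 (raw count 92), against 41.4 in the next mouse. The same mouse had the highest mmu-let-7g of its group, at a scaled count of 136.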

How the results depend on the processing

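In EPFR against filtered air the 1 called member, mmu-let-7i, became 0 with the positive controls alone (log2 fold change 1.20, edgeR adjusted p = 0.0875), limma on the deposited normalized values (1.82, adjusted p = 0.175), the replicate block (1.25, adjusted p = 0.0566), without the 4 mice with no housekeeping probe over 1 count above the negative controls (1.36, adjusted p = 0.124), with the ligation controls as covariate (0.99, adjusted p = 0.999) and within replicates 1 to 4 (1.10, adjusted p = 0.994). It was called under 5 of 10 settings other than left-out mice and replicate sets alone, and its sign was kept in all 10. In EPFR lo the 0 calls became 1 with the replicate block, mmu-let-7g at 1.28 (adjusted p = 0.0233). For both particle groups pooled, the 0 calls became 1 with TMM, with the top 100 miRNA as scaling, among miRNA above background alone, with the replicate block and with the replicate sets (1 to 4 and 5 to 8) as a factor, and 3 with DESeq2. Leaving out 1 mouse gave 0 to 1 calls in EPFR, 0 to 2 in EPFR lo and 0 to 3 pooled (3 without filtered air replicate 6, 1 without EPFR replicates 1, 2 or 5 or EPFR lo replicates 1 or 3). Signs turned for mmu-let-7d (-0.24) and mmu-let-7g (-0.085) in EPFR with the ligation covariate and for mmu-let-7f in EPFR lo with the top 100 miRNA (-0.17) and within replicates 5 to 8 (-0.12). mmu-let-7f in EPFR ran from -0.29 to 0.0075 as single mice were left out. Scaling to the top 100 miRNA moved the median of all miRNA to -0.30 in EPFR and -0.31 in EPFR lo. After the negative-control mean was subtracted, the median share of mmu-let-7f was 22.8% in EPFR, 26.9% in EPFR lo and 51.8% in filtered air, and that of mmu-let-7g 18.3%, 38.5% and 25.8% in the same groups. With 3 SD as the limit mmu-let-7i was detected in 6, 7 and 1 of 8 mice of these groups and mmu-let-7g in 5, 7 and 2. The mice were not taken as pairs, since the labels do not pair them, correlations of same-numbered mice ran from -0.25 to 0.61 (means of -0.0039 to 0.29 per number, against -0.02 for different numbers) and 6 of 24 mice correlated best with their own number, a hint from the data rather than the design. The cause of these changes was not tested.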

Other observations

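In replicates 1 to 4 the raw counts of mmu-let-7f did not overlap between EPFR and filtered air, a pattern chosen after the values were seen. They were 37, 44, 44 and 37 in EPFR mice, against 58, 51, 52 and 49 in filtered air mice. In replicates 5 to 8 the raw counts were 71, 68, 63 and 87 in EPFR mice, against 106, 83, 84 and 68 in filtered air mice, which overlap. After scaling, replicates 1 to 4 overlapped too, at 26.8 to 58.2 in EPFR mice and 34.9 to 84.4 in filtered air mice. How many other miRNA separate in raw counts in these same mice was not tested. The pattern is therefore not shown to be particular to mmu-let-7f.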
